A study of Homo sapiens with 4 samples.

Results

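A set of 10 protein-coding mRNAs of the pathway that runs from AKT through the TSC complex and RHEB to mTORC1, S6 kinase and the 4E-BPs was followed across a polysome gradient of HEK293T cells. The 10 members are AKT1, AKT2, TSC2, RHEB, MLST8, RPTOR, AKT1S1, RPS6KB2, EIF4EBP1 and EIF4EBP2, out of 19948 gene symbols in the table. They were chosen by symbol, with the condition of 10 or more counts summed over the 4 libraries. Each of the 10 also had the 30 counts required for the comparisons below, as did 7527 genes in all. HEK293T is a human embryonic kidney line that carries the SV40 large T antigen. Cells of all groups received cycloheximide at 100 ug/mL for 10 min, an inhibitor that freezes elongating ribosomes in place, and the labels name no other treatment or mutation. The lysate was spun through sucrose from 10% to 50%, and capped, polyadenylated RNA was read directly on nanopores from the free, monosome, light polysome and heavy polysome pools. Each pool gave 1 library, so no spread between replicates exists, no p-value is given, and intervals cover 95% counting error only.

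AKT kinases are switched on by growth factors through PI3K and phosphorylate TSC2, the part of the TSC complex that turns off the small GTPase RHEB. RHEB bound to GTP switches on mTORC1, which is built on the kinase MTOR with RPTOR and MLST8 and is restrained by AKT1S1, also called PRAS40. Active mTORC1 phosphorylates the S6 kinases and the 4E-BPs, small proteins that bind the cap-binding factor eIF4E and block initiation until they are phosphorylated. The study asks how mTOR and the RNA-binding protein LARP1 control TOP mRNAs, which start with a cytosine followed by a run of pyrimidines. The members are thus mRNAs of the regulator rather than of its best-known targets.

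The starts of the members are shown because a TOP start is a property of the first bases. RefSeq start windows were used for 7 of the 10 members, with 10 starts in all. AKT1S1, MLST8 and EIF4EBP1 are left out of these starts. Each line holds 10 bases before the annotated start and 20 from it on, read on the transcript strand, and capitals mark runs of 5 or more C or T. RPS6, RPL3 and EEF2, TOP mRNAs of ribosomal proteins and an elongation factor, are printed for contrast.
RPS6: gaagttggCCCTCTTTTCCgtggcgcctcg
RPL3: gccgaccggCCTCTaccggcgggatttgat
EEF2: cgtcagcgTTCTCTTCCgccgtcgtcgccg
AKT1: gcgggccggcggcggcggcaggaccgagcg
AKT2: ggggggccgcgccgtgctagccgttgggcc
TSC2: tgcgggtcgcgCTTCCggcggcgtcccggg
RHEB: ggaagaaggtgggagggtcatgacgcagcg
RPTOR: tgcattctgggtcctggcaatatggcgtcc
RPS6KB2: cgggactgtcagtcagtgcgcggccaggta
EIF4EBP2: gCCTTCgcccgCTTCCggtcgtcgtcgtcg
On GRCh38.p14 these windows are chr9:19380217-19380246, chr22:39319604-39319633, chr19:3985444-3985473, chr14:104795729-104795758, chr19:40285326-40285355, chr16:2047975-2048004, chr7:151519876-151519905, chr17:80544828-80544857, chr11:67428484-67428513 and chr10:70404135-70404164. The windows of RPTOR, RPS6KB2, EIF4EBP2 and the TSC2 start lie on the plus strand and the others on the minus strand. RPS6 had 9 pyrimidines from its start, EEF2 had 7 and RPL3 had 4, the C included, so RPL3 falls short of a C with 4 more pyrimidines at its annotated start. None of the 10 member starts, the second starts of AKT1, AKT2 and TSC2 included, had C as its first base, against 14.7% of 35116 starts in the table. A C followed by 4 more pyrimidines stood at 0 member starts and at 4.07% of all starts. A run of 5 or more pyrimidines anywhere in the window was present at 3 of the 10 member starts, against 48.9% of all starts. These are annotated starts, and the starts used in these cells were not measured here.

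The libraries held 355509 counts on genes for the free pool, 1329334 for the monosome, 1499401 for the light polysome and 1564531 for the heavy polysome. The 10 members together gave 181, 2383, 4670 and 1855 counts, so their values in the free pool are the least precise. Of the 6 markers chosen for HEK293T, VIM led with 850 counts over the libraries and PAX2 was lowest with 6. ALB, PTPRC, CD3E and INS had no count, HBB had 4, all in the free library, and COL1A1 had 2. Levels below are counts scaled to a common library total (CPM). Ribosomal protein mRNAs filled 64.9% of the free and 19.1% of the heavy polysome counts, which lowers the CPM of every other mRNA most at the free end.

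Of the 10 mRNAs, 9 had their highest CPM in the light polysome library, and RHEB had it in the monosome library. Among all 7527 genes 30.0% were highest in the light polysomes, and the median gene had 47.8% of its summed CPM in the heavy polysome library. In the members the light polysome share of the summed CPM ran from 39.8% for MLST8 to 67.4% for AKT2, with a median of 49.5% against 29.7% over all genes. Their heavy polysome share ran from 11.0% for EIF4EBP1 to 40.7% for RPTOR, with a median of 21.7%. With library sizes scaled by edgeR's TMM, MLST8 and EIF4EBP1 were highest in the monosome library too, and 7 members stayed highest in the light polysomes.

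**Figure D1:**
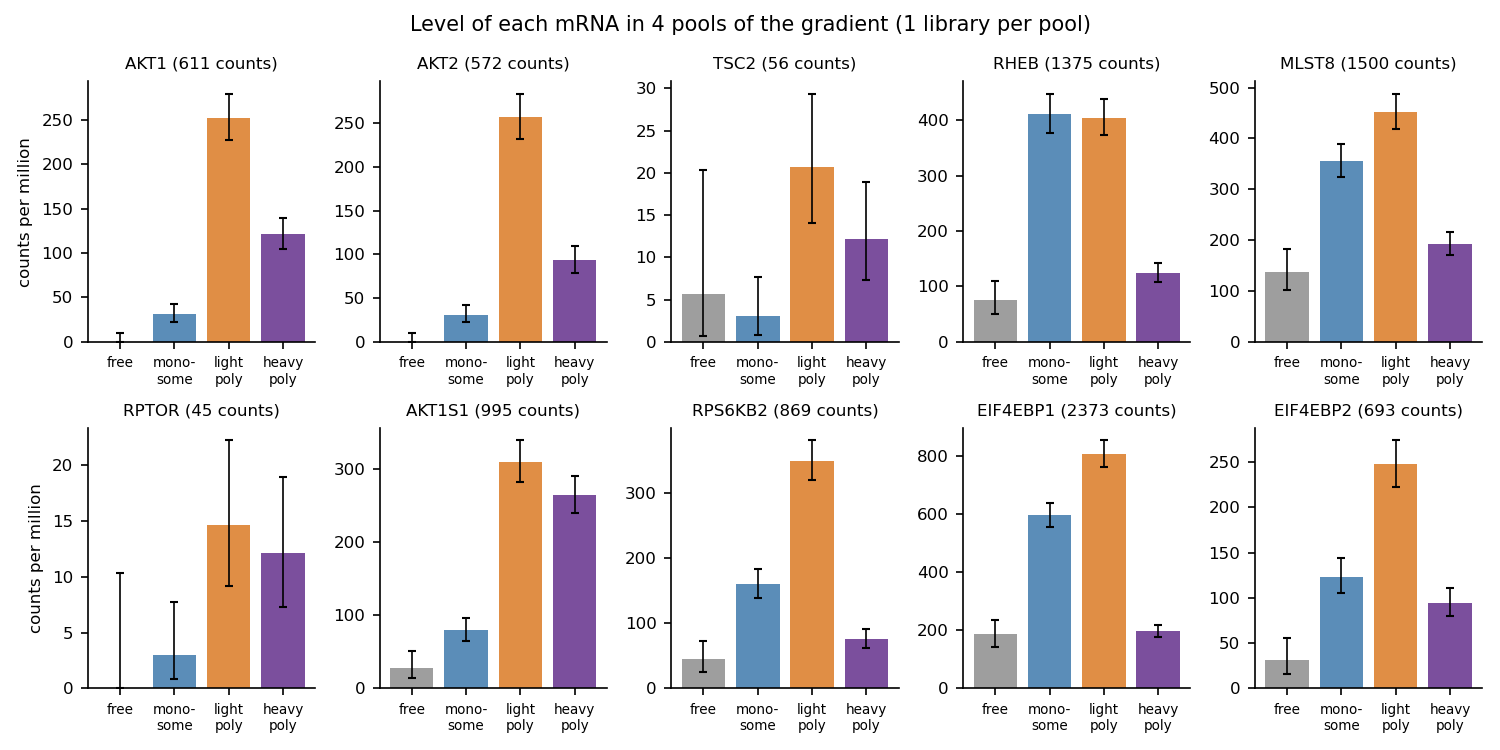
CPM (vertical axis, a separate scale for each gene) in the free, monosome, light polysome and heavy polysome libraries, with exact Poisson 95% intervals of the counts. The light polysome bar is the tallest in 9 panels, and in RHEB it is level with the monosome bar (405 and 411 CPM).

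The AKT kinases were the members most concentrated in the light polysomes. AKT1 (chromosome 14, 104769349 to 104795751, minus strand) had 0 CPM in the free library, 31.6 in the monosome, 253 in the light polysome and 121 in the heavy polysome library, from 0, 42, 379 and 190 counts. AKT2 (chromosome 19, 40230317 to 40285536, minus strand) had 0, 30.8, 257 and 93.3 CPM, from 0, 41, 385 and 146 counts. For each gene every pool differed from the next in order beyond counting error, the light polysome being highest and the free pool lowest.

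Neither kinase was seen in the free library, where a count of 0 allows a level of up to 8.44 CPM (3 counts). The upper end of the exact Poisson interval drawn in the plot of levels is 10.4 CPM. A count of 0 in this shallow library was common: 2348 of the 7527 genes had none there, as did 3 of the 10 members. In light polysome against monosome the share of AKT1 was 8.00-fold higher and that of AKT2 8.33-fold higher. The median gene, meaning the median ratio over the 7527 genes, was 1.98-fold higher in that comparison. On the log2 scale AKT1 lay 2.00 above the median gene (1.55 to 2.51) and AKT2 2.06 above it (1.61 to 2.58), with 96.0% and 96.5% of all genes below them. From light to heavy polysome they lay at -1.65 (-1.91 to -1.39) and -2.05 (-2.34 to -1.77).

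The paralogues differed slightly between heavy and light polysomes, and no difference was detectable before that step. The light to monosome ratio of AKT1 was 0.961 times that of AKT2 (0.595 to 1.55), an interval that includes equal ratios. The heavy to light ratio of AKT1 was 1.32 times that of AKT2, with an interval of 1.01 to 1.73 that lies just above 1.

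The switch below AKT held a rare and an abundant mRNA with different profiles. TSC2 (chromosome 16, 2047465 to 2089487, plus strand), which codes for the GTPase-activating subunit that AKT phosphorylates, had 2, 4, 31 and 19 counts from free to heavy polysome, or 5.63, 3.01, 20.7 and 12.1 CPM. Its light polysome level was the highest, but the interval of its ratio to the heavy polysome level included equal shares (0.932 to 3.19). RHEB (chromosome 7, 151466012 to 151520120, minus strand) had 75.9, 411, 405 and 124 CPM, from 27, 547, 607 and 194 counts. Its monosome and light polysome levels did not differ beyond counting error (ratio 0.904 to 1.14), and both stood above the other pools.

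RHEB was the member with the largest share in the monosome library, 40.5% of its summed CPM. In light polysome against monosome it lay at -1.01 relative to the median gene (-1.18 to -0.84), where TSC2 lay at 1.65 (0.30 to 3.76). Between heavy and light polysome RHEB lay at -2.30 (-2.54 to -2.06) and TSC2 at -1.34 (-2.26 to -0.49). RHEB has 3 annotated retrocopies, and NTHL1 and PKD1 overlap TSC2 by 402 and 778 bases on the opposite strand. NTHL1 had 6, 39, 124 and 289 counts from free to heavy polysome, more than TSC2 in every library, and PKD1 had 0, 3, 8 and 3. Strand use and the handling of reads with several alignments were not stated in the sources used here, and the counts of RHEB and TSC2 are uncertain to that extent.

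Among the parts of mTORC1, the small subunit mRNA MLST8 was spread widely. The inhibitor AKT1S1 had a heavy polysome level near its light polysome level. MLST8 (chromosome 16, 2204248 to 2209416, plus strand), whose product binds the kinase domain of MTOR, had 138, 355, 452 and 192 CPM from free to heavy polysome. Every pool differed from the next beyond counting error, and 12.1% of its summed CPM lay in the free library. AKT1S1 (chromosome 19, 49869033 to 49878459, minus strand), an AKT substrate, had 28.1, 79.7, 310.1 and 265 CPM, from 10, 106, 465 and 414 counts. Its light polysome level was above its heavy polysome level by a ratio of 1.02 to 1.34, the narrowest such gap among the members with over 100 counts. The heavy polysome share of its summed CPM was 38.8%, below the 47.8% of the median gene.

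RPTOR (chromosome 17, 80544819 to 80966371, plus strand), the scaffold that brings substrates to mTORC1, was rare, with 0, 4, 22 and 19 counts. Its light and heavy polysome levels of 14.7 and 12.1 CPM were not distinguishable at this depth. MLST8 lay at -1.82 (-2.02 to -1.63) in heavy against light polysome, AKT1S1 at -0.82 (-1.01 to -0.63) and RPTOR at -0.86 (-1.83 to 0.09). AKT1S1 and RPTOR were the members that were under 2-fold below the median gene there. The locus of AKT1S1 is annotated as overlapping TBC1D17 on the opposite strand by 1035 bases. TBC1D17 had 0, 12, 48 and 14 counts, below those of AKT1S1 in every library, and the counts of AKT1S1 carry the same uncertainty as those of TSC2.

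Among the mRNAs of the mTORC1 targets, RPS6KB2 and EIF4EBP1 had the lowest heavy to light polysome ratios of all members. EIF4EBP2 lay near AKT2 there, with overlapping intervals. RPS6KB2 (chromosome 11, 67428460 to 67435408, plus strand), which codes for the second S6 kinase, had 45.0, 159, 349 and 75.4 CPM, from 16, 212, 523 and 118 counts. EIF4EBP1 (chromosome 8, 38030341 to 38060365, plus strand), the most counted member, had 186, 595, 806 and 196 CPM, from 66, 791, 1209 and 307 counts. EIF4EBP2 (chromosome 10, 70404379 to 70428618, plus strand) had 30.9, 123, 247 and 93.96 CPM, from 11, 164, 371 and 147 counts. All 3 were highest in the light polysomes and second in the monosomes, each step beyond counting error. For RPS6KB2 and EIF4EBP1 the heavy polysome and free levels did not differ beyond counting error, with ratios of 0.990 to 3.03 and 0.808 to 1.40.

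RPS6KB2 lay at -2.80 in heavy against light polysome (-3.10 to -2.51), with 4.86% of all genes below it, and EIF4EBP1 at -2.63 (-2.82 to -2.45), with 6.11% below it. EIF4EBP2 lay at -1.98 (-2.27 to -1.71). The 4E-BP paralogues have coding sequences of 354 and 360 nucleotides, and they differed at both polysome steps. The light to monosome ratio of EIF4EBP1 was 0.676 times that of EIF4EBP2 (0.547 to 0.832), and its heavy to light ratio was 0.641 times (0.507 to 0.812). RPS6KB1, the other S6 kinase gene and not a member, had 0, 3, 4 and 25 counts and lay at 1.85 in heavy against light polysome (0.46 to 3.97). The retrocopy EIF4EBP1P1 and 3 retrocopies of EIF4EBP2 are annotated, and RPS6KB2 has an antisense gene, so these counts carry the same uncertainty as those of RHEB.

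Across the members, the step from light to heavy polysomes was the most uniform. Calls required a distance of 2-fold or more from the median gene and a counting interval that excluded the median gene. In heavy against light polysome 8 of the 10 members were called lower and 0 higher, while 28.3% of all genes were lower and 26.0% higher. All 10 lay below the median gene, with a median of -1.90 and a range from -2.80 to -0.82. Over all genes there were 1959 higher and 2131 lower, and 2958 higher and 1349 lower when plain shares were compared without centring on the median gene. The median gene itself was 1.51-fold higher in the heavy polysome library.

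In light polysome against monosome the members divided. AKT1, AKT2 and TSC2 were called higher and RHEB lower, against 14.9% of all genes higher and 16.3% lower. The call of RHEB rests on the centring: it lay between -0.98 and -0.82 when a minimum of 10 counts, no minimum, a pseudocount of 1, TMM or DESeq2's size factors were used, and plain shares were level. AKT1S1 at 0.97 fell short of 2-fold, which it passed with a minimum of 10 counts (1.04), no minimum (1.16), TMM (1.10), DESeq2's size factors (1.04) and no centring (1.95). TSC2 lost its call here (0.89) and its lower call in heavy against light polysome (-1.74) after thinning to the free library's depth. Its lower call in heavy against light polysome was also lost with no centring (-0.75). The member median was 0.56, and 7 members lay above the median gene. Plain shares split all genes into 3310 higher and 278 lower, in place of 1125 and 1226. MLST8 at -0.64 and EIF4EBP1 at -0.55 lay below the median gene by less than 2-fold, with intervals that excluded it.

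In monosome against free 3 members were called higher and 0 lower, against 5.13% and 4.57% of all genes. RHEB lay at 1.15 (0.61 to 1.79). AKT1 and AKT2 were the others, and their calls rest on the 0.5 added to each count. A floor of 3 counts in the free library put the monosome share of AKT1 at least 3.74-fold higher. That of AKT2 was at least 3.65-fold higher. The median gene was 2.41-fold higher, but that value itself rests on the 0.5 added to each count. RPTOR, with 4 monosome counts and 0 free counts, lay exactly on it. Of the 7527 genes, 2348 had no free count, so these bounds and the median gene are not on one footing. The member median was 0.46, and it was the same with the 3 members without a free count at their bound. Over all genes 386 were higher and 344 lower. TMM gave 666 and 211, DESeq2's size factors gave 574 and 245, and plain shares gave 2048 and 60. Thinned to the depth of the free library, no member was called.

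In heavy polysome against free, the ends of the gradient, 5 members were called lower and 2 higher, against 15.3% and 6.36% of all genes. RHEB lay at -2.36 (-2.92 to -1.70), MLST8 at -2.58 (-3.004 to -2.10), RPS6KB2 at -2.34 (-3.06 to -1.45), EIF4EBP1 at -2.97 (-3.35 to -2.56) and EIF4EBP2 at -1.50 (-2.32 to -0.41). The call of EIF4EBP2 was lost with TMM (-0.79), DESeq2's size factors (-0.92), no minimum count (-0.37), a minimum of 10 counts (-1.07) or a pseudocount of 1 (-1.02), and that of AKT2 with a minimum of 100 counts. These are positions relative to the median gene, which was 8.26-fold higher in the heavy polysomes. That value depends on low free counts, as 2348 of the 7527 genes had none in the free library. RHEB lay at -1.84 with a pseudocount of 1 and at -1.23 with no minimum count, and 4 members were called lower under each. In plain shares none of the 5 was lower in the heavy polysome library, with ratios from 1.06 for EIF4EBP1, level within counting error, to 3.04 for EIF4EBP2. AKT1 had a share at least 14.4-fold higher there, AKT2 at least 11.1-fold and RPTOR at least 1.44-fold. Relative to the median gene the bounds of AKT1 and AKT2 are 0.80 and 0.42 on the log2 scale, so both higher calls rest on the 0.5 added to each count. The member median was -1.86, or -2.28 with AKT1, AKT2 and RPTOR at their bound. Over all genes 479 were higher and 1152 lower. TMM gave 1239 and 860, DESeq2's size factors gave 1047 and 921, and plain shares gave 5458 and 227. The 4 comparisons share libraries and are not independent.

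**Figure D2:**
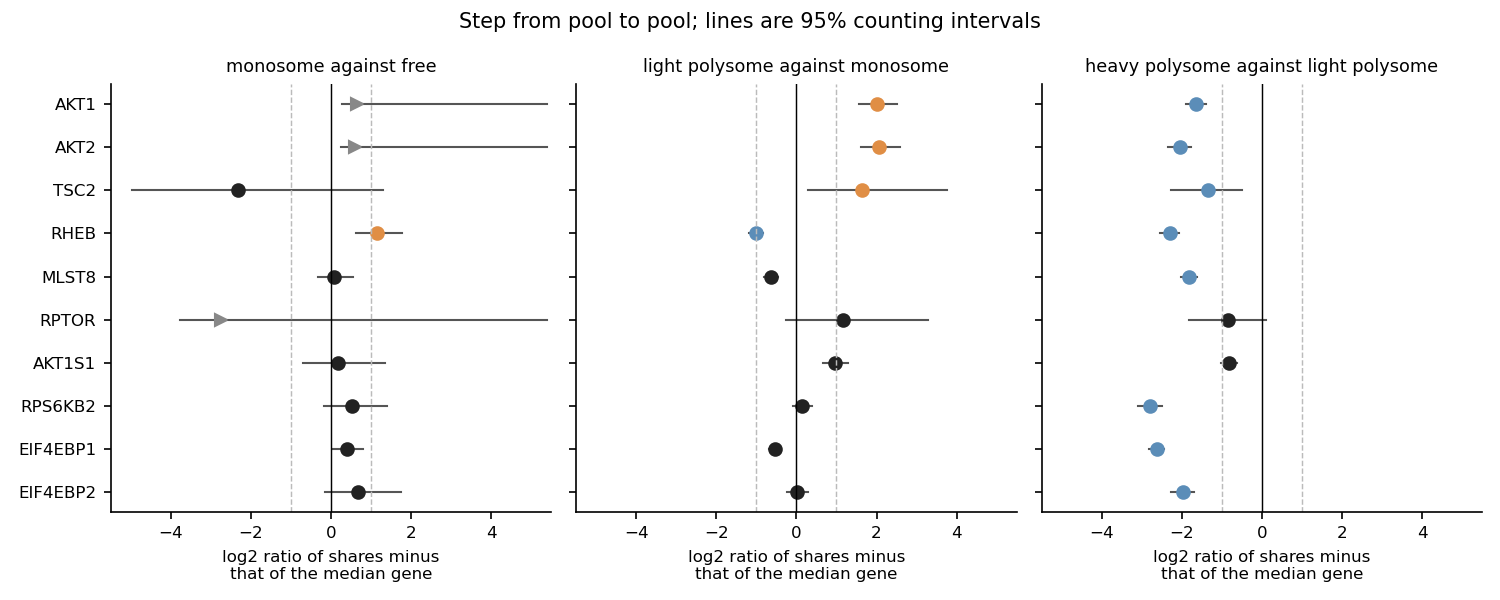
Log2 ratio of shares minus that of the median gene (horizontal axis) for each member in 3 comparisons of neighbouring pools, with 95% counting intervals. Orange points are called higher, blue points lower and black points neither; grey triangles stand at the bound for members with 0 counts in the free library. In heavy against light polysome all 10 points lie left of 0, between -2.80 and -0.82.

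Other genes of the pathway, in 7 lists chosen by function, did not share one direction. Of 86 genes in these lists, 56 had 30 or more counts. In heavy against light polysome 18 were called higher and 11 lower, with a median of 0.30, where 26.0% and 28.3% of all genes were called. In light polysome against monosome 10 were higher and 10 lower, against 14.9% and 16.3% of all genes, with a median of -0.04. In monosome against free 5 were higher and 0 lower (5.13% and 4.57% of all genes), and in heavy polysome against free 5 were higher and 5 lower (6.36% and 15.3%). The counts of the single lists below, from 5 to 12 genes each, are descriptions beside those same shares, and no test sets a list apart from all genes. The highest CPM lay in the heavy polysome library for 40 of the 56 genes and in the light polysome library for 11.

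Of the S6 kinases and their substrates, 5 of 8 were called higher in heavy against light polysome and 0 lower, with a median of 1.57, against 26.0% of all genes higher. Their highest gene was PDCD4, an inhibitor of the helicase eIF4A, at 2.89 (2.03 to 4.05). Their most counted genes, RPS6 and the initiation factor EIF4B, lay at -0.12 and -0.68 there, and at -2.27 and -1.76 in light polysome against monosome. Amino acid sensing genes had 6 of 12 called higher and 0 lower, with a median of 0.84. SEC13, their most counted gene, lay at 1.20 (0.93 to 1.47), and SESN1, a sestrin, at 2.09 (0.95 to 3.71).

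Of the other mTORC1 targets and 4E-BP partners, 4 of 7 were called lower and 0 higher in heavy against light polysome, with a median of -1.33, against 28.3% of all genes lower. EIF4E, the cap-binding protein that the 4E-BPs hold, had 22, 393, 352 and 144 counts and lay at -1.94 (-2.23 to -1.66), near EIF4EBP2. It lay at -1.32 in light polysome against monosome, below EIF4EBP1 and EIF4EBP2. MAF1, a repressor of RNA polymerase III, lay at -1.88 (-2.10 to -1.67) and the autophagy factor ATG13 at -1.85 (-2.24 to -1.48). In light polysome against monosome MAF1 lay at 1.40 and ATG13 at 1.97, as AKT1 and AKT2 did at 2.00 and 2.06. LARP1, the TOP mRNA regulator of the study's title, was the highest of the list at 0.76.

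The TSC complex and AMPK list divided, with 4 of 11 called higher and 3 lower in heavy against light polysome. STK11, the kinase that switches on AMPK, had 1, 76, 444 and 126 counts and lay at -2.47 (-2.77 to -2.18), while the AMPK subunits PRKAB1 and PRKAA2 lay at 1.22 and 1.46. TSC1, the partner of TSC2, had 1, 31, 31 and 14 counts. It lay at -1.77 (-2.82 to -0.85) in heavy against light polysome and at -1.16 in light polysome against monosome, where TSC2 lay at 1.65. TBC1D7, the third subunit of the complex, lay at 1.67 (0.95 to 2.57) in the latter comparison.

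Of the other mTOR complex genes, 2 of 6 were called lower and 1 higher in heavy against light polysome, with a median of -0.04. MAPKAP1, an mTORC2 subunit, lay at -2.59 and PRR5, another, at -2.73. MTOR itself had 0, 6, 10 and 17 counts and TELO2, which helps to assemble the complexes, had 1, 10, 39 and 55. Among the PI3K and insulin receptor genes 2 of 7 were higher and 1 lower, with a median of 0.33; PIK3R3, a regulatory subunit of PI3K, was highest at 2.32. Among AKT substrates 1 of 5 was lower and 0 higher, with a median of 0.22. That gene was BAD, a cell death factor, at -2.60 (-2.97 to -2.25), while the kinases GSK3A and GSK3B lay at 0.22 and 0.79.

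**Figure D3:**
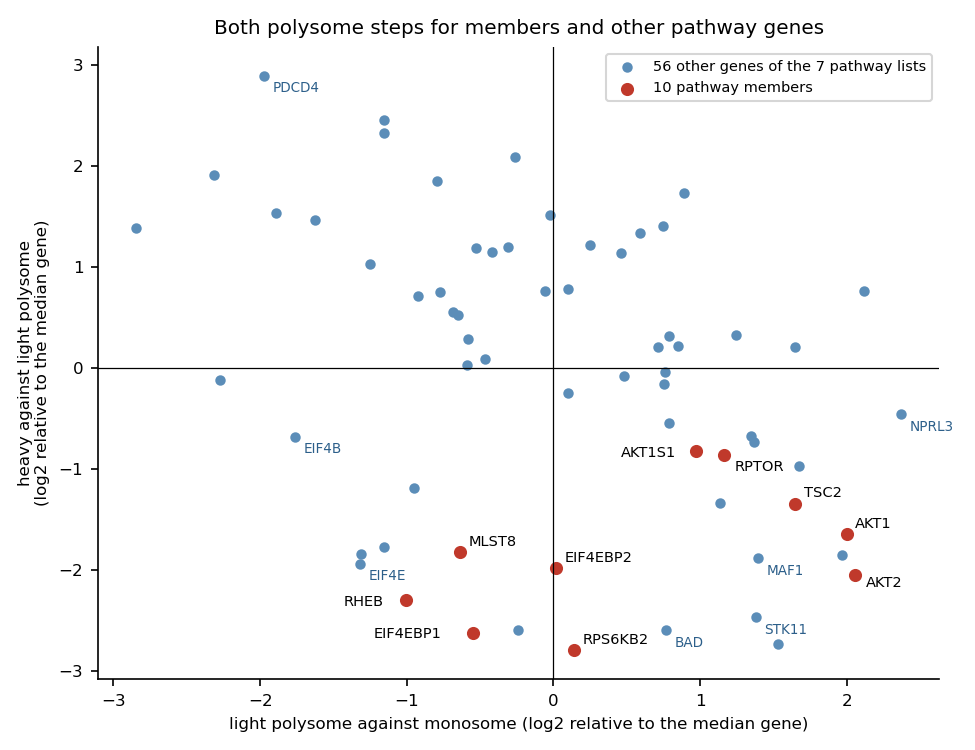
Light polysome against monosome (horizontal axis) and heavy against light polysome (vertical axis), both as log2 ratios relative to the median gene, for the 10 members (red) and 56 other pathway genes (blue). All members lie below 0 on the vertical axis and spread from -1.01 to 2.06 on the horizontal one. The axes share the light polysome library, so an error there moves a point down and to the right or up and to the left.

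A feature that most members share and that did not choose them is a coding sequence rich in G and C. In GENCODE release 29, 9 of the 10 members lay above the median coding G+C content of 52.8% over 7464 genes. AKT1S1 had the most at 68.4% and RHEB the least at 40.6%, where 5.75% of all genes had less. Across those genes G+C content went with the light polysome against monosome ratio, with a Spearman rho of 0.501, and with heavy against light polysome at -0.251. The genes share the same libraries and are not independent, so these are descriptions. Among the 1866 genes with the least G+C the median of light polysome against monosome was -0.85 and 16.1% were highest in the light polysomes. Among the 1866 with the most, they were 0.66 and 44.9%.

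RHEB, with its low G+C content, was the member furthest below the median gene in light polysome against monosome. Among the 10 members G+C content did not order the ratios, with a rho of -0.05, since MLST8 at 61.2% and EIF4EBP1 at 64.4% lay below the median gene and AKT1 at 59.7% and AKT2 at 58.5% far above it. The part of base composition in the members' profiles was not tested. Coding length, from 354 nucleotides in EIF4EBP1 to 5421 in TSC2, went with heavy against light polysome across all genes at a rho of 0.325. TSC2 was longer than 98.8% of the genes and RPTOR longer than 97.1%. AKT1, AKT2 and RPS6KB2 had 1440, 1443 and 1446 nucleotides, against a median of 1197, and the other 5 members were shorter than it. The part of coding length in the members' profiles was not tested.

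**Figure D4:**
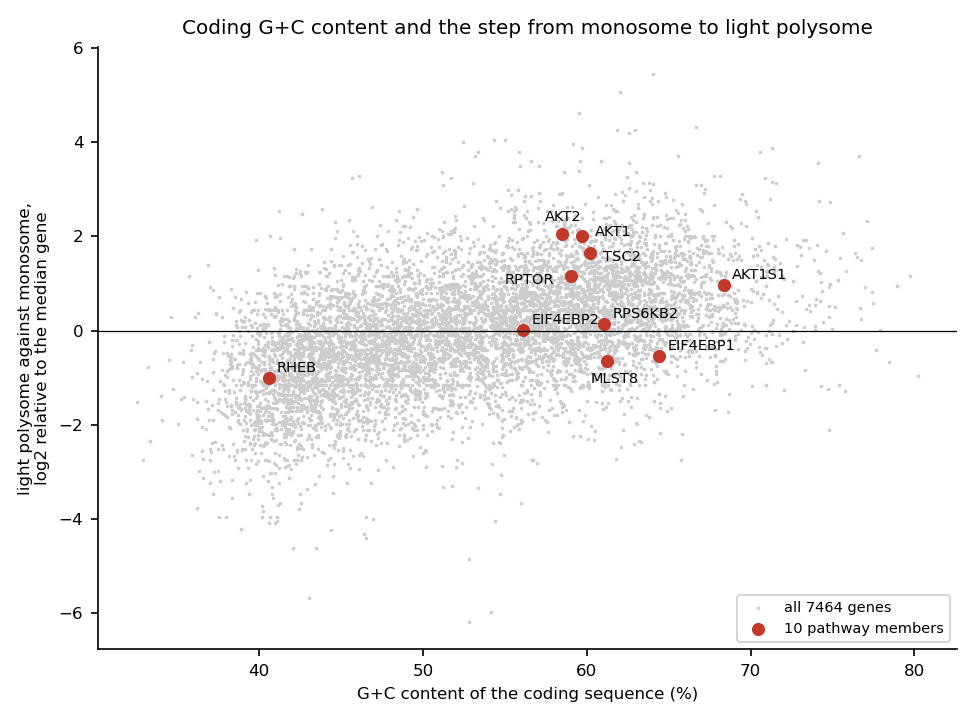
G+C content of the coding sequence in percent (horizontal axis) and light polysome against monosome as a log2 ratio relative to the median gene (vertical axis), for 7464 genes (grey) and the 10 members (red). RHEB stands alone on the left at 40.6% and -1.01, and AKT1 and AKT2 stand highest of the members at 2.00 and 2.06.

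The genes with the profile nearest to a member were sought among 2076 genes with at least 300 counts, by the sum of absolute differences between their 4 pool shares of summed CPM. For AKT1 they were BAP1, CDCA5 and CHMP1A, at sums of 2.37, 3.67 and 4.60 percentage points. For AKT2 they were CDIP1, MAPKAPK3 and CDC42EP1, at 3.74, 5.76 and 6.85. RAC3, ABT1 and SLC39A4 were nearest to AKT1S1 at 1.76, 1.88 and 2.23. EIF4EBP1 was nearest to SS18L2, SEM1 and PAIP2 at 2.68, 3.02 and 3.35, and EIF4EBP2 to RNF220, HDDC3 and CDKN2A at 1.84, 3.17 and 3.46. No EIF4EBP gene was among the nearest of the other, nor AKT1 or AKT2 of each other.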

How the data were processed

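Capped, polyadenylated RNA from 4 gradient pools of HEK293T cells was measured, 1 library per pool. The deposited table holds unscaled whole-number counts for each gene. The tools named in the submitters' processing notes are minimap2 2.15, featureCounts and Subread 1.6.2, with the hg38 build. The sources used here do not state the annotation release, the strand setting or the handling of reads with several alignments. Direct RNA sequencing involves no PCR.

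From these counts CPM on the library total, log2 ratios of shares with 0.5 added to each count, and exact intervals (Poisson for levels, Clopper-Pearson conditional binomial for ratios) were computed. Ratios were centred on the median of the 7527 genes with 30 or more counts summed over the 4 libraries. With 1 library per pool no test against replicates could be fitted, and counting intervals do not cover differences between preparations. In the free library 1097 genes had 10 or more counts, against 8250 in the heavy polysome library. The call rule was tested on simulated data. Coding features and coordinates came from GENCODE release 29 (19445 symbols matched) and start windows from RefSeq (GRCh38.p14). Some members had no start window printed, and some results on genes outside the 10 members are left out.

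The members and lists were chosen with earlier results of these data known. Named genes are the 10 members; of each of 7 lists the 3 most counted genes and, per comparison, the highest and lowest with 30 or more counts in the pair; and the nearest profiles. RPS6KB1, MTOR, TSC1, TBC1D7, PRKAB1, MAPKAP1 and some others named from the lists are shown with their values, and any outside this rule were picked with their values known. Alternatives were minimum counts of 10, 100 or none, a pseudocount of 1, DESeq2 1.42.0 size factors or edgeR 4.0.16 TMM for scaling, no centring, thinning to the shallowest library, and CPM without ribosomal protein genes. Software was R 4.3.3 and Python 3.11.15, with scipy 1.17.1, numpy 2.4.6, matplotlib 3.10.9 and pandas 2.3.3.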

Additional observations from a re-analysis of the deposited data

How the results depend on the processing

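In heavy against light polysome all 80 alternative values of the members stayed below 0, from -2.82 to -0.23; the median lay between -1.92 and -1.31 and 7 or 8 members were called lower under the 8 alternatives. In light polysome against monosome the median lay between 0.49 and 1.54. The 1 call of a lower member there (RHEB) became 0 with a minimum of 10 counts, no minimum, a pseudocount of 1, TMM, DESeq2's size factors or no centring, and the 3 higher calls became 4 with a minimum of 10 counts, no minimum, TMM or DESeq2's size factors, 7 with no centring and 2 after thinning. In monosome against free the 3 higher calls became 4 with TMM, 6 with no minimum, 8 with no centring and 0 after thinning. The 2 higher calls in heavy polysome against free became 1 with a minimum of 100 counts. They became 3 with no minimum and 5 with no centring. No centring left 0 lower there and moved the median to 1.18. With it RHEB (0.68), MLST8 (0.47), RPS6KB2 (0.71), EIF4EBP1 (0.071) and EIF4EBP2 (1.54) reversed. Of the other pathway genes, those called lower changed from 0 to 1 after thinning (monosome against free), from 10 to 2 with no centring and 4 after thinning (light polysome against monosome), and from 5 to 3 with a minimum of 10 counts, no minimum, a pseudocount of 1, TMM or DESeq2's size factors, and to 0 with no centring (heavy polysome against free). Counts for these genes were added as an alternative after seeing the data. No centring sets the median gene's own shift back into every ratio, and thinning lowers all counts; the cause of the other changes was not tested. With ribosomal protein genes left out of the totals, MLST8 and EIF4EBP1 were highest in the monosome library, as with TMM. Over all genes, higher and lower calls ranged over the alternatives from 241 to 2048 and from 60 to 372 in monosome against free (386 and 344 as reported), from 518 to 3310 and from 278 to 1309 in light polysome against monosome (1125 and 1226), from 1156 to 2958 and from 1109 to 2455 in heavy against light polysome (1959 and 2131), and from 393 to 5458 and from 227 to 1033 in heavy polysome against free (479 and 1152). Depth limits the free pool, TSC2 and RPTOR most. No paired analysis was possible because each pool has 1 library.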
